A study of Mus musculus with 6 samples.

Results

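The genes described here encode 9 surface proteins of myeloid cells, most of them inhibitory receptors or receptors with an activating partner: Clec12a, Pilra, Pirb, Lilrb4a, Cd300a, Cd300lf, Cd33, Siglece and Cd24a. They were chosen by name, with earlier results of these data known, as 9 of the 24532 genes listed in the tables. All 9 passed the filter on low values that left 11337 genes to test. Expression was measured by RNA sequencing of cells sorted from the bone marrow of C57BL/6J mice, with 2 libraries, called biological duplicates, in each of 3 populations. BaP, labelled as a basophil precursor, was sorted as CD34-positive and MAR1-positive cells without c-Kit or lineage markers. MAR1HI and MAR1INT were sorted as CD200R3-positive cells that lacked CD34, c-Kit and lineage markers and bound MAR1 at a high or an intermediate level. MAR1 is an antibody to FcεRIα, the IgE-binding chain of the high-affinity receptor. No group was treated or carried a transgene per the labels, which do not state how many animals stand behind a library. The p-values below therefore measure the spread between these libraries only.

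The 9 genes did not move as one group. Lilrb4a, an inhibitory immunoglobulin-like receptor, rose at both steps, from a mean of 329.6 TPM in BaP to 1160.0 in MAR1HI and 2978 in MAR1INT. Pirb rose in MAR1INT against each of the other groups, and Cd300a had its highest values there without passing the test. Clec12a, the most abundant of the 9 in BaP, stood at 392 TPM in BaP, 308 in MAR1HI and 66.1 in MAR1INT, and was called lower in MAR1INT against both other groups. Cd24a was lower in MAR1INT than in either other group. Siglece, the least abundant of the 9 in each group, was lower in MAR1INT than in BaP, a call that several alternative runs lost. Pilra, Cd33 and Cd300lf also had low levels, and had no call. TPM is the authors' abundance scaled for gene length and library depth. It does not correct for how well the library kit recovered each gene. Levels, ranks and shares of different genes are therefore set side by side only as a rough guide.

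Inhibitory receptors of myeloid cells carry short tyrosine motifs in their cytoplasmic tails. Once phosphorylated by Src family kinases, these motifs recruit the phosphatases SHP-1, SHP-2 or SHIP-1, which dampen signals from activating receptors such as the IgE receptor of basophils and mast cells. Many such receptors are paired: a neighbouring gene encodes a receptor with a similar outer part, a short tail, and an adaptor such as DAP12 (Tyrobp) or the Fc receptor gamma chain (Fcer1g) for activating signals. Pirb with the Pira genes, Pilra with the Pilrb genes, and the CD300 family are examples. Cd24a stands apart from the name of the set: it encodes a small glycoprotein held in the membrane by a lipid anchor, has no signalling tail and is known as a ligand of sialic acid-binding receptors.

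Promoter sequences came from a RefSeq (GRCm38.p6) promoter set that held 7 of the 9 genes and not Lilrb4a or Cd24a. Each covers 300 bases, 250 before and 50 after the start of the gene. The sequences of 3 genes called in MAR1INT against BaP are shown, because Pirb rose while Clec12a and Siglece fell in the same comparison. Each is written 5′ to 3′ on the gene's own strand. Capitals mark matches, on either strand, to the letters searched for 4 blood cell factors: GAGGAAG for PU.1, AGATAA for GATA factors, TTGCNNAA for C/EBP factors and TGTGGT for RUNX factors.
Pirb promoter, chr7:3720333-3720632, minus strand, with GAGGAAG starting at position -120 from the gene start: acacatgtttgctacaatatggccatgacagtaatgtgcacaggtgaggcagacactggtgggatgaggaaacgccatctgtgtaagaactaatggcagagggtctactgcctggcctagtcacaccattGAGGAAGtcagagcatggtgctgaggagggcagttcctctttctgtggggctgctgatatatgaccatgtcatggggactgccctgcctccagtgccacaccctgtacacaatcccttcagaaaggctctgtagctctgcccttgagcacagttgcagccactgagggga
Clec12a promoter, chr6:129349994-129350293, plus strand, with TGTGGT at -155, TTGCGCAA at -140, which reads the same on both strands, and GAGGAAG at -61: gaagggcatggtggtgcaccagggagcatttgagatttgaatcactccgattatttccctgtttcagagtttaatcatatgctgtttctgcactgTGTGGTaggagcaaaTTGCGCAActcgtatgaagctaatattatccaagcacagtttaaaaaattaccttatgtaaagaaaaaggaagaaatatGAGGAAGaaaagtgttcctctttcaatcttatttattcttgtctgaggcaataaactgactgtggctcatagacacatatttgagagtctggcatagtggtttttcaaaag
Siglece promoter, chr7:43660112-43660411, minus strand, with the reverse complement of GAGGAAG at -88 and again at -37: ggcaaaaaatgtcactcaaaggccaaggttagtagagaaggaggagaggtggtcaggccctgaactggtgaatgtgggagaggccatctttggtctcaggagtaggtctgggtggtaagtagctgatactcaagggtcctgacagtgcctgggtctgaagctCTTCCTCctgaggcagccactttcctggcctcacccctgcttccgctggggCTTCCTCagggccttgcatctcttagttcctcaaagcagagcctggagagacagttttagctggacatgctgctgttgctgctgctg

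The PU.1 letters occurred in 7 of the 7 promoters found, against 13.6% of all 32851 promoters in the table. They stood in the promoter of Pirb, which rose, and in those of Clec12a and Siglece, which fell, so their presence did not part the directions. The C/EBP letters occurred in Clec12a, Pilra and Cd300a (10.8% of all promoters), and the RUNX letters in Clec12a, Pilra, Cd300lf and Cd33 (16.8%). The GATA letters occurred only in Pilra among the 7 (11.2%). No pattern overlapped another in the matches shown. These are counts of letters in one window and were given no test.

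The libraries were of similar depth, with 4.75 to 5.28 gigabases of aligned sequence implied by the tables. Genes at a TPM of 1 or more were fewest in MAR1INT (9604 and 9705). There were 10983 and 11544 in BaP, and 10710 and 11038 in MAR1HI. Basophil markers were present in every group, with 12 of 12 listed and summed levels of 12776 to 22528 TPM. Mast cell markers summed to 42.1 to 45.5 TPM in BaP, mostly Kit, and to 0.0446 to 5.14 elsewhere, with Mcpt1, Tpsab1 and Mrgprb1 at 0 in all libraries. The BaP libraries differed from each other in the markers of other marrow cells. Neutrophil markers (14) summed to 6407 TPM in BaP replicate 1 and 11769 in replicate 2, against 4039 to 5212 in MAR1HI and 3652 to 4209 in MAR1INT. Monocyte and macrophage markers (14) summed to 1071 and 1417 TPM in BaP, 494 to 582 in MAR1HI and 506 to 538 in MAR1INT. Eosinophil markers (8) summed to 2160 and 1146 TPM in BaP, 81.2 to 119 in MAR1HI and 81.5 to 228 in MAR1INT. Epx, Prg3, Ear6 and Il5ra were listed at 0 in both MAR1INT libraries. Siglecf went against the sum, with 21.9 and 20.9 TPM in BaP and 79.5 and 109.8 in MAR1INT. Prg2 stood at 1.95 and 70.05 TPM in the MAR1INT duplicates. Dendritic cell markers (11) summed to 997 and 371 TPM in BaP, 63.0 to 77.0 in MAR1HI and 21.8 to 26.2 in MAR1INT. No neutrophil marker was at 0 in both libraries of a group. In sorted bulk RNA, fewer cells of a type and less RNA per cell cannot be told apart.

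Differences are log2 changes of TPM + 1 with their standard error (SE) from limma, fitted on all 11337 genes, and "called" means a Benjamini-Hochberg adjusted p under 0.05 over those genes. In MAR1HI against BaP 1 of the 9 genes was called higher (1.83% of all genes tested) and 0 lower (0.662%), where 2.49% were called in either direction. With 2 libraries against 2, no exact permutation test can reach a p under 0.05. In MAR1INT against MAR1HI 2 were called higher (2.29% of all genes) and 2 lower (14.5%), where 16.8% were called in either direction. In MAR1INT against BaP 2 were called higher (11.1%) and 3 lower (20.4%), where 31.5% were called in either direction, and the F test over the 3 groups called 5 (26.6%). With no filter on low values the calls that remained were those of Lilrb4a, Clec12a and Cd24a in MAR1INT against BaP. MAR1INT against BaP and MAR1INT against MAR1HI share the MAR1INT libraries, and MAR1HI against BaP shares its libraries with both. The median log2 change of the 9 genes was -0.35, -0.47 and -1.24 in the 3 contrasts, beside 0.24, -0.36 and -0.16 over all genes tested.

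**Figure D1:**
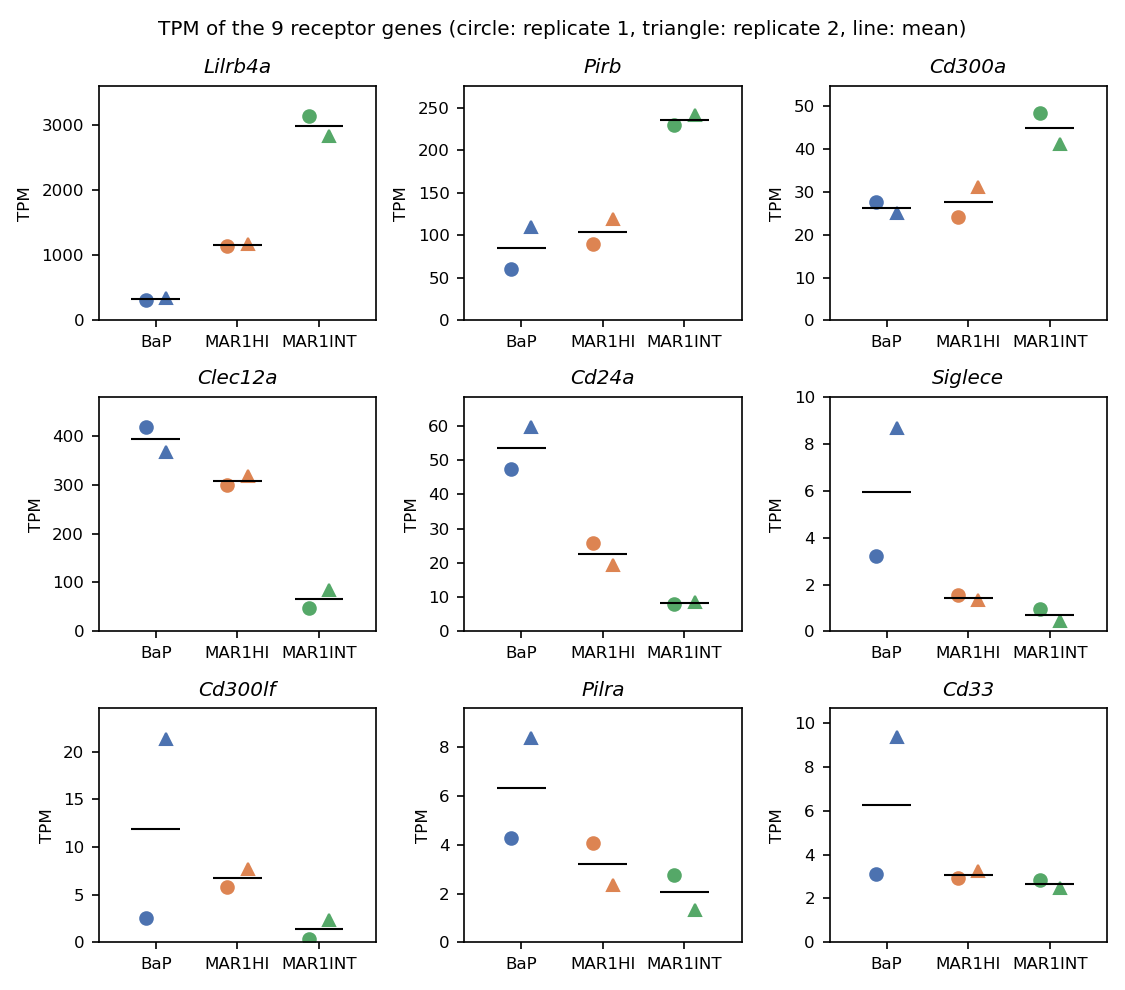
TPM (vertical axis, linear, from 0, a separate scale in each panel) of the 9 genes in the BaP, MAR1HI and MAR1INT libraries, with a circle for replicate 1, a triangle for replicate 2 and a line at the group mean. Lilrb4a separates all 3 groups upward, Clec12a and Cd24a are lowest in MAR1INT, and Cd300lf ranges from 2.55 to 21.3 TPM between the BaP duplicates.

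Lilrb4a (gene 14728, mm10 chromosome 10, 51490898 to 51496611, plus strand) encodes gp49B, an inhibitory immunoglobulin-like receptor first described on mast cells. It stood at 311.8 and 347 TPM in BaP (replicate 1, then replicate 2, as throughout), at 1146.5 and 1173.5 for MAR1HI, and at 3130.0 and 2826 for MAR1INT. All libraries of one group lay above all libraries of the group before it, and the duplicates lay close together. Group values were 329.6 ± 25.2 TPM (SD, n = 2), 1160.0 ± 19.2 and 2978 ± 215. It rose from BaP to MAR1HI by 1.81 on the log2 scale (SE 0.17, adjusted p = 0.00151) and from MAR1HI to MAR1INT by 1.36 (SE 0.17, adjusted p = 0.00121). Over both steps the log2 change was 3.17 (95% interval 2.78 to 3.56, adjusted p = 0.000014). By mean TPM it was the 381st most abundant gene of 24532 in BaP, the 158th in MAR1HI and the 64th in MAR1INT. The call between MAR1HI and BaP was lost without MAR1HI replicate 1 (1.83, adjusted p = 0.0750) and without MAR1HI replicate 2 (1.80, adjusted p = 0.155), at nearly the same size.

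Its neighbour Lilr4b (gene 14727), 4.57 kilobases away, encodes gp49A, a close relative without the inhibitory motifs. Lilr4b stood at 364 and 417 TPM in BaP, at 2077 and 1824 for MAR1HI, and at 6808 and 5999 for MAR1INT, and it rose at both steps (log2 changes 2.32 and 1.72, adjusted p = 0.000634 and 0.00045). It was the 330th most abundant gene in BaP and the 10th in MAR1INT. Of the distinct 50-base stretches in the annotated transcripts of Lilrb4a, 26.1% also occur in Lilr4b and 46.7% in some other gene, so the authors' division of reads between them is uncertain. Lilrb4a made up 46.2% and 45.5% of the summed TPM of both genes in BaP, while MAR1HI had 35.6% and 39.2%, and MAR1INT had 31.5% and 32.0%. The sum itself stood at 676 and 764 TPM in BaP, at 3224 and 2998 for MAR1HI, and at 9938 and 8826 for MAR1INT. With both genes summed before the fit, the log2 change was 2.11 (adjusted p = 0.000873) at the first step, 1.59 (0.000514) at the second and 3.70 over both, all called.

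Pirb (gene 18733, chromosome 7, 3712505 to 3720382, minus strand) encodes paired immunoglobulin-like receptor B, which binds MHC class I and recruits SHP-1. It stood at 60.2 and 110.3 TPM in BaP, at 89.9 and 119 for MAR1HI, and at 229.9 and 241.5 for MAR1INT. BaP and MAR1HI overlapped, while both MAR1INT libraries lay above the other 4. The log2 change was 0.34 between MAR1HI and BaP (95% interval -0.33 to 1.01, adjusted p = 0.602). It rose from MAR1HI to MAR1INT by 1.18 (SE 0.30, adjusted p = 0.0272) and from BaP to MAR1INT by 1.52 (SE 0.30, adjusted p = 0.00499). The rise over MAR1HI lost its call without either MAR1HI library (0.98, adjusted p = 0.173, and 1.38, adjusted p = 0.131) and in a fit without a variance trend (adjusted p = 0.0800). The rise over BaP lost its call without BaP replicate 1 (1.09, adjusted p = 0.0523).

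The activating partners of Pirb showed no called rise, and no contrast between them and Pirb was fitted. Pira1, Pira2 and Lilra6, whose products signal through the Fc receptor gamma chain, summed to 15.8 and 43.4 TPM in BaP, at 16.2 and 20.6 for MAR1HI, and at 12.7 and 26.0 for MAR1INT, and none of the 3 was called in any contrast. Pirb made up 79.2% and 71.8% of the summed TPM of the 4 genes in BaP, while MAR1HI had 84.8% and 85.2%, and MAR1INT had 94.8% and 90.3%. These shares did not overlap between any 2 groups. Other Pira genes were not analysed here. Pirb shares 34.0% of its 50-base stretches with other genes, 16.8% with Pira2 and 15.0% with Lilra6, so these shares also depend on how the authors' counting divided the reads.

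**Figure D2:**
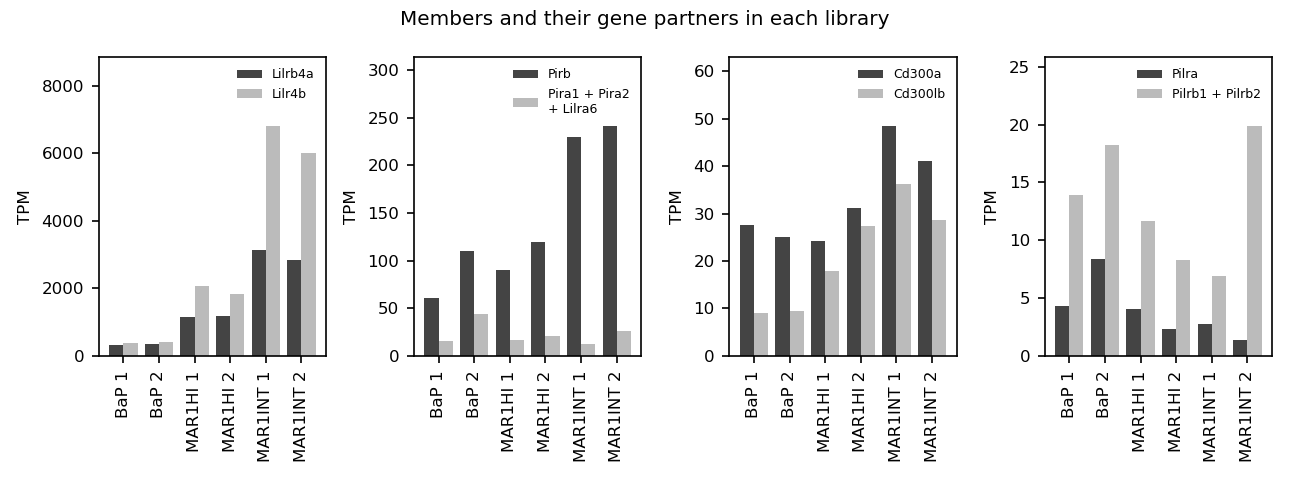
TPM (vertical axes, linear, from 0, each panel with its own scale) of 4 of the 9 genes (dark bars) and of their gene partners (light bars, summed where several are named) in each of the 6 libraries. Lilr4b exceeds Lilrb4a in every library, the Pira genes and Lilra6 stay between 12.7 and 43.4 TPM while Pirb reaches 241.5, and Cd300a and Cd300lb are both highest in MAR1INT replicate 1.

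The CD300 receptors bind lipids such as phosphatidylserine on dying cells. Cd300a (gene 217303, chromosome 11, 114890041 to 114904653, plus strand) encodes an inhibitory member known to restrain mast cells and basophils. It stood at 27.6 and 25.1 TPM in BaP, at 24.1 and 31.2 for MAR1HI, and at 48.5 and 41.1 for MAR1INT. Both MAR1INT libraries lay above the other 4, while BaP and MAR1HI overlapped. The log2 change was 0.68 from MAR1HI to MAR1INT (95% interval 0.03 to 1.34, adjusted p = 0.148) and 0.74 from BaP to MAR1INT (0.08 to 1.40, adjusted p = 0.0822), and neither was called. Under other scalings the change from MAR1HI was called: 0.66 with FPKM (adjusted p = 0.0449), 0.95 under quantile normalization (0.0196) and 0.97 under median-of-ratios scaling (0.0159). The change from BaP was called after quantile normalization (0.72, adjusted p = 0.0218) and under median-of-ratios scaling (0.73, adjusted p = 0.0176). Between MAR1HI and BaP the direction depended on the scaling, with 0.06 in TPM and -0.16 to -0.23 in the other 3.

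Cd300lb lies 18.1 kilobases from Cd300a and encodes an activating relative that signals through DAP12. It stood at 8.98 and 9.43 TPM in BaP, at 17.8 and 27.3 for MAR1HI, and at 36.2 and 28.7 for MAR1INT, and it rose from BaP to MAR1INT by 1.70 (adjusted p = 0.00636). That call was lost without either BaP library. Cd300a made up 75.4% and 72.7% of the summed TPM of both genes in BaP, while MAR1HI had 57.5% and 53.3%, and MAR1INT had 57.2% and 58.9%. The BaP libraries thus had the highest shares of the inhibitory gene in this pair.

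Cd300lf (gene 246746, chromosome 11, 115116214 to 115133992, minus strand) encodes another CD300 receptor with inhibitory motifs. It stood at 2.55 and 21.3 TPM in BaP, at 5.81 and 7.67 for MAR1HI, and at 0.409 and 2.39 for MAR1INT. The BaP duplicates spanned the MAR1HI values, and both MAR1INT libraries lay below the other 4. The log2 change was -0.21 between MAR1HI and BaP (adjusted p = 0.915) and -1.81 between MAR1INT and MAR1HI (adjusted p = 0.156). The latter was -1.18 without MAR1INT replicate 1 and -2.45 without MAR1INT replicate 2. From BaP to MAR1INT it was -2.03 (95% interval -3.81 to -0.24, adjusted p = 0.0802). Leaving out 1 library moved this change to -3.35 without BaP replicate 1 and -0.70 without BaP replicate 2. It was -1.39 without MAR1INT replicate 1 and -2.66 without MAR1INT replicate 2. The whole gene lies within Rab37 on the opposite strand, which stood between 93.4 and 202.5 TPM. Whether the counting used strand was not stated, so reads of the 2 genes may not be told apart.

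Clec12a (gene 232413, chromosome 6, 129350244 to 129365303, plus strand) encodes an inhibitory C-type lectin receptor of granulocytes and monocytes, known to sense uric acid crystals. It stood at 416.8 and 367 TPM in BaP, at 299 and 317 for MAR1HI, and at 47.0 and 85.1 for MAR1INT. The 3 groups did not overlap, and both MAR1INT libraries lay far below the rest. Between MAR1HI and BaP the log2 change was -0.35 (95% interval -0.97 to 0.28, adjusted p = 0.558). It fell by 2.26 from MAR1HI to MAR1INT (SE 0.28, adjusted p = 0.000949) and by 2.61 from BaP to MAR1INT (adjusted p = 0.000259). Without MAR1HI replicate 2 the fall from MAR1HI had adjusted p = 0.0619 at -2.22.

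For Clec12a the second step minus the first, a contrast chosen after its values were seen, was -1.92 (95% interval -2.99 to -0.84, adjusted p = 0.0818). It was not called, and 0 of the 9 genes were called higher (0.115% of all genes tested) or lower (2.02%) in it, where 2.13% were called in either direction. The step difference was -1.50 without MAR1INT replicate 1 and -2.34 without MAR1INT replicate 2. It was called among genes with a mean TPM of 5 or more (adjusted p = 0.0456). In the order of levels Clec12a was first of the 9 in BaP, second to Lilrb4a in MAR1HI, and below both Lilrb4a and Pirb in MAR1INT.

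**Figure D3:**
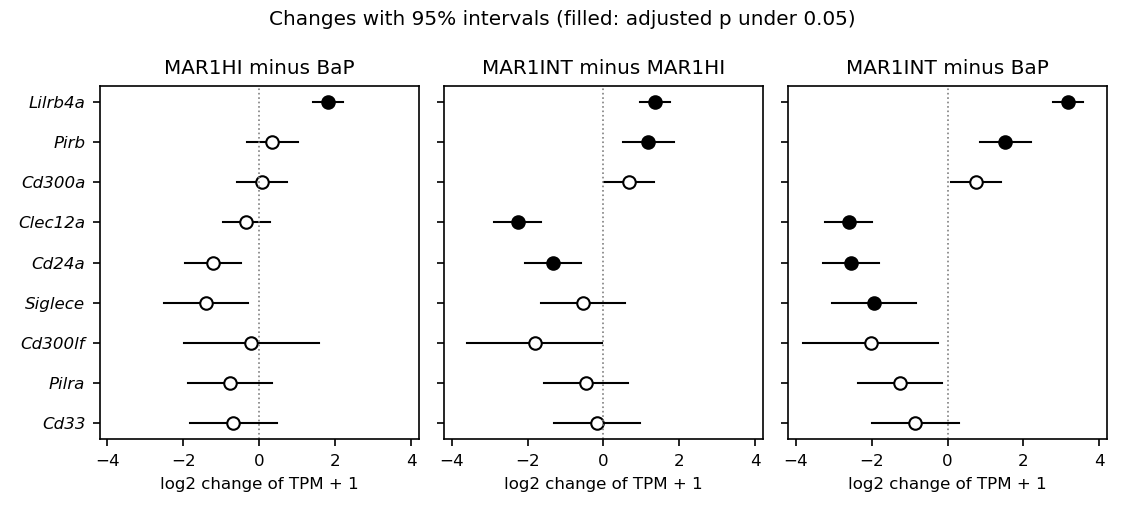
Log2 change of TPM + 1 (horizontal axes) of the 9 genes in the 3 contrasts, with points for the estimates, lines for 95% intervals and filled points for an adjusted p under 0.05. The interval of Clec12a spans 0 in MAR1HI minus BaP and lies wholly below 0 in both contrasts with MAR1INT, while that of Lilrb4a lies above 0 in all 3.

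Cd24a (gene 12484, chromosome 10, 43579169 to 43584265, plus strand), the lipid-anchored glycoprotein, stood at 47.5 and 59.6 TPM in BaP, at 25.9 and 19.5 for MAR1HI, and at 8.05 and 8.49 for MAR1INT. The 3 groups did not overlap and descended in that order. Group values were 53.5 ± 8.56 TPM (SD, n = 2), 22.7 ± 4.52 and 8.27 ± 0.307. The log2 change was -1.21 between MAR1HI and BaP (95% interval -1.94 to -0.47, adjusted p = 0.0957). It fell by 1.34 from MAR1HI to MAR1INT (SE 0.33, adjusted p = 0.0236) and by 2.55 from BaP to MAR1INT (SE 0.33, adjusted p = 0.00059).

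The change from BaP to MAR1INT held its call in each alternative run. The fall from MAR1HI lost its call without either BaP library (adjusted p = 0.0779 and 0.0803), without either MAR1HI library (-1.14, 0.1002 and -1.54, 0.0770), under quantile normalization (-0.81, 0.148), under median-of-ratios scaling (-1.07, 0.0671) and with only these 2 groups in the fit (0.102). The change between MAR1HI and BaP was called, at the same size, with only those 2 groups in the fit (adjusted p = 0.00928).

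Siglece and Cd33 are sialic acid-binding receptors whose genes lie 118 kilobases apart on chromosome 7. Siglece (gene 83382, 43651070 to 43660161, minus strand), an inhibitory receptor best known on neutrophils, stood at 3.24 and 8.69 TPM in BaP, at 1.55 and 1.34 for MAR1HI, and at 0.958 and 0.428 for MAR1INT. The 3 groups did not overlap, although the BaP duplicates differed more from each other than MAR1HI did from MAR1INT. It fell from BaP to MAR1INT by 1.94 (SE 0.49, adjusted p = 0.016), from a mean depth of 9.64 and 25.1 reads per base to 2.27 and 1.08. The other contrasts were not called (-1.39, adjusted p = 0.186, and -0.55, adjusted p = 0.491). The fall lost its call without BaP replicate 2 (-1.34, adjusted p = 0.0997), with MAR1HI replicate 1 or 2 left out (0.0515 and 0.0518), with only the 2 groups in the fit (0.0519) and after quantile normalization (-0.98, 0.173). The change between MAR1HI and BaP was called, at the same size, with only those 2 groups in the fit (adjusted p = 0.0286).

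Cd33 (gene 12489, 43527456 to 43533171, minus strand), a marker of myeloid cells, stood at 3.13 and 9.36 TPM in BaP, at 2.93 and 3.24 for MAR1HI, and at 2.82 and 2.47 for MAR1INT. BaP replicate 2 alone stood above 3.24 TPM. No contrast was called, with log2 changes of -0.68, -0.17 and -0.85 (adjusted p = 0.527, 0.864 and 0.233). Without BaP replicate 2 the change from BaP to MAR1INT was -0.18.

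Pilra (gene 231805, chromosome 5, 137821952 to 137836278, minus strand) encodes the inhibitory receptor of the PILR pair, which binds sialylated glycoproteins. It stood at 4.29 and 8.37 TPM in BaP, at 4.06 and 2.33 for MAR1HI, and at 2.77 and 1.35 for MAR1INT. MAR1HI and MAR1INT overlapped, and both BaP libraries lay above the other 4. The log2 change from BaP to MAR1INT was -1.24 (95% interval -2.35 to -0.14, adjusted p = 0.0830) and was not called. It was -1.59 without MAR1INT replicate 1 and -0.90 without MAR1INT replicate 2. Pilra shares 670 bases of its span with Zcwpw1 on the opposite strand, which stood between 21.6 and 34.2 TPM in BaP and MAR1HI and was listed at 0 in MAR1INT. Its activating partners Pilrb1 and Pilrb2 summed to 13.9 and 18.3 TPM in BaP, at 11.7 and 8.29 for MAR1HI, and at 6.88 and 19.9 for MAR1INT, with no call for either. Pilra made up 6.34% to 31.4% of the 3 genes over the 6 libraries, so the activating genes held the larger share in each.

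By groups that did not overlap, 1 of the 9 genes was higher in MAR1HI than in BaP (38.2% of all genes) and 4 were lower (15.3%). Between MAR1INT and MAR1HI 3 were higher (12.7%) and 5 lower (42.2%), and between MAR1INT and BaP 3 were higher (29.7%) and 6 lower (39.1%). The shares of lower genes in the contrasts with MAR1INT are large over all genes, so the counts are read only as a description.

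The BaP duplicates themselves disagreed for part of the set. Of the 9 genes, 5 stood more than 1.5-fold higher in BaP replicate 2 than in replicate 1, against 12.0% of all genes tested, and 0 stood as far lower. The ratios were 8.34 for Cd300lf, 2.99 for Cd33, 2.68 for Siglece, 1.95 for Pilra and 1.83 for Pirb. Clec12a (0.881), Cd300a (0.910), Lilrb4a (1.11) and Cd24a (1.25) lay nearer to the median of all genes (1.02). The neutrophil marker sum had a ratio of 1.84, and 11 of its 14 genes were past 1.5-fold. The monocyte sum had a ratio of 1.32, with 3 of its 14 genes past 1.5-fold (Lyz2, Ly6c2 and F13a1). More of its genes were past 1.5-fold in the other direction: C1qa, C1qb, C1qc, Adgre1 and Ctss. C1qa stood at 25.8 and 10.2 TPM in BaP replicates 1 and 2, and Ctss at 183.1 and 115.5. Eosinophil (0.531) and dendritic cell sums (0.372) went the other way. Of their genes, 0 of 8 and 5 of 11 were past 1.5-fold higher in replicate 2. The sums are carried by their most abundant genes and do not speak for every gene of a list. The part of these other cells in the values of the 9 genes was not tested. Without BaP replicate 2 the changes from BaP to MAR1INT of Lilrb4a (3.25), Clec12a (-2.70), Cd24a (-2.39) and Pirb (1.95) were still called.

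**Figure D4:**
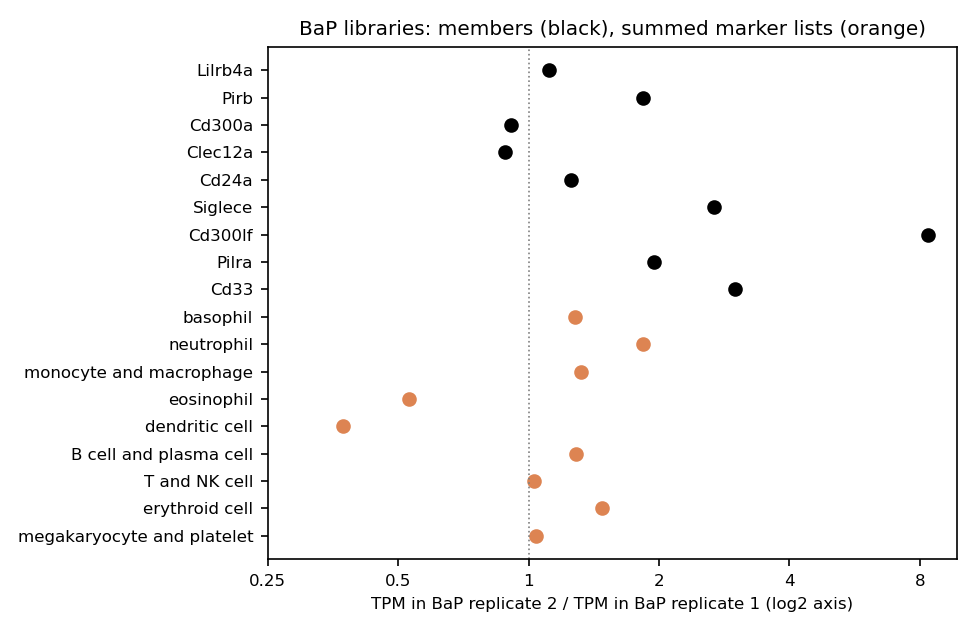
Ratio of TPM in BaP replicate 2 to BaP replicate 1 (horizontal axis, log2 scale) for the 9 genes (black) and for the summed TPM of marker lists (orange, without mast cell markers), with a dotted line at 1. Cd300lf stands farthest to the right at 8.34, followed by Cd33 (2.99) and Siglece (2.68). Pilra (1.95) and Pirb (1.83) lie nearer to the neutrophil markers at 1.84.

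The machinery that inhibitory receptors recruit was described over 12 phosphatases, kinases and adaptors. From BaP to MAR1INT 5 rose (11.1% of all genes tested), with a median of 0.70 beside -0.16 for all genes. Csk, the kinase that restrains Src family kinases, stood at 56.3 and 71.9 TPM in BaP and 140.4 and 144 in MAR1INT, and rose by 1.15 (adjusted p = 0.0075). Pag1, the membrane adaptor that holds Csk, stood at 0.942 and 1.53 TPM in BaP, at 5.03 and 7.96 for MAR1HI, and at 15.9 and 15.0 for MAR1INT, a rise of 2.89 over both steps (adjusted p = 0.0012). The inhibitory docking proteins Dok2 (0.86) and Dok3 (1.23) rose as well, and Dok2 was the only one called between MAR1HI and BaP (1.27, adjusted p = 0.0482), a call lost when any 1 of those 4 libraries was left out. Inpp5d, which encodes SHIP-1, rose by 0.86 (adjusted p = 0.0178). It was named after its value was seen, as were Ptpn6 (SHP-1) and Ptpn11 (SHP-2), with log2 changes of 0.42 (adjusted p = 0.265) and -0.39 (0.47). None of the 12 was called between MAR1INT and MAR1HI. The count that rose from BaP to MAR1INT was 1 without BaP replicate 1, 3 without BaP replicate 2 and 3 without MAR1INT replicate 1.

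Of the adaptors that carry activating signals, 4 of 5 were tested and 3 rose from BaP to MAR1INT (11.1% of all genes). Tyrobp, which encodes DAP12, stood at 1448 and 1383 TPM in BaP, at 2366 and 1882 for MAR1HI, and at 3842 and 4035 for MAR1INT. Its rise was 1.48 over both steps (adjusted p = 0.00046) and 0.90 at the second (0.00993), the latter call being lost with FPKM and without MAR1HI replicate 2. Hcst (DAP10) rose at the first step, from 111 and 88.0 TPM to 225.0 and 214 (1.14, adjusted p = 0.0303), a call lost when any 1 of these 4 libraries was left out. Syk, the kinase that binds DAP12 and the Fc receptor gamma chain, rose by 0.86 over both steps (adjusted p = 0.0317). Fcer1g was not called, at 677 ± 47.0 (SD, n = 2), 946 ± 56.3 and 871 ± 41.2 TPM in BaP, MAR1HI and MAR1INT.

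Among the activating partners of the 9 genes, 14 of 20 names were listed and 10 tested. From BaP to MAR1INT Cd300lb rose (11.1% of all genes) and 2 other CD300 genes fell (20.4%, near their share of the 10), with a median of -0.87. Cd300c2 stood at 22.6 and 9.15 TPM in BaP, at 4.16 and 3.77 for MAR1HI, and at 0.137 and 1.08 for MAR1INT, with a log2 change of -3.33 (adjusted p = 0.00171). Cd300ld3 stood at 42.9 and 16.4 TPM in BaP, was listed at 0 and 3.43 in MAR1HI, and at 0 in both MAR1INT libraries. The fallen count was 4 without MAR1INT replicate 2. Both genes were higher in BaP replicate 1, as were the eosinophil and dendritic cell marker sums, whose part in this was not tested.

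A list of 25 other myeloid receptors, named for inhibition, had 16 tested genes. From BaP to MAR1INT 5 rose (11.1% of all genes) and 3 fell (20.4%, near their share of the 16), with a median of 0.02. One of the 5 was Lilr4b, whose product lacks the inhibitory motifs. The eosinophil receptor Siglecf stood at 21.9 and 20.9 TPM in BaP, at 29.5 and 44.5 for MAR1HI, and at 79.5 and 109.8 for MAR1INT, and rose by 2.08 (adjusted p = 0.00118). Cd200r1, the inhibitory receptor of CD200, stood at 227 and 187 TPM in BaP, at 429 and 464 for MAR1HI, and at 625 and 481 for MAR1INT, and rose by 1.41 (adjusted p = 0.00119). The lectin gene Clec4a3 went the other way, from 51.6 and 31.4 TPM in BaP to 1.49 and 2.60 in MAR1HI, and was listed at 0 in both MAR1INT libraries. The other called genes were named after their values were seen. Milr1 (1.03) and Vsir (1.46) rose, and Lair1 (-1.39) and Clec4a2 (-3.24) fell. The Clec4a2 change had an SE of 1.08 and adjusted p = 0.0464. Its MAR1INT duplicates disagreed, with 20.2 TPM in replicate 1, above both MAR1HI libraries, and 0 in replicate 2. The size of the Clec4a2 fall therefore depended largely on MAR1INT replicate 2. Without BaP replicate 1 the counts were 3 and 1, and without BaP replicate 2 the fallen count was 1.

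Of lectin-type and activating myeloid receptors 17 were tested. From BaP to MAR1INT 12 fell (20.4% of all genes) and 1 rose (11.1%), and 5 fell from BaP to MAR1HI (0.662%). Clec4n, Clec4b1, Clec9a, Treml4 and Siglec1 reached 1 TPM only in BaP, so they passed the filter through the group where they were high and could only be lower elsewhere. Of the genes that fell, 7 of the 12 and 2 of the 5 reached 1 TPM in another group as well. Clec4b1 had 46.9 and 32.9 TPM in the BaP libraries and 0 in the other 4. Clec4a1 stood at 37.5 and 14.2 TPM in BaP and Sirpb1a at 22.8 and 16.1, and both were listed at 0 in MAR1INT. Sirpb1b, called at the second step, stood at 8.87 and 5.74 TPM in MAR1HI and was listed at 0 in MAR1INT. Named after their values were seen, Treml2 rose by 0.93, and Clec4n (-2.39) and Treml4 (-2.24) were the others that fell from BaP to MAR1HI. With a mean TPM of 5 or more, 5 fell from BaP to MAR1INT. The 5 that fell from BaP to MAR1HI became 1 without either BaP library, 0 if either MAR1HI library was left out and 8 if either MAR1INT library was. Summed markers of monocytes, dendritic cells and eosinophils were also highest in BaP, and the part of these cells in these falls was not tested.

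Of 15 ligands of inhibitory receptors 12 were tested, and from BaP to MAR1INT 3 rose (11.1% of all genes) and 2 fell (20.4%, near their share of the 12), with a median of 0.05. H2-D1, an MHC class I gene, stood at 999.0 and 1155 TPM in BaP, at 1408 and 1648 for MAR1HI, and at 2128 and 2114 for MAR1INT, and rose by 0.98 (adjusted p = 0.0033). Cd274, which encodes PD-L1, rose by 1.08 (adjusted p = 0.0185), and Apoe fell by 1.59 (0.000875), from 231 and 185 to 73.5 and 63.1 TPM. Cd24a was the other gene that fell, and Pdcd1lg2 (PD-L2, named after its value was seen) rose by 1.36. The count that rose was 1 without either BaP library.

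The genes with profiles most like those of the 4 genes with the strongest F test were found by the root mean square (RMS) difference between log2 profiles centred on each gene's mean over the 6 libraries. For Lilrb4a these were Ltb (0.148), Bcar3 (0.171) and Tulp4 (0.199). Ltb, which encodes lymphotoxin beta, stood at 7.32 and 10.8 TPM in BaP, at 36.6 and 41.8 for MAR1HI, and at 97.4 and 99.5 for MAR1INT. For Clec12a they were Pkp4 (0.130), Mybl2 (0.131) and Prodh (0.143). Mybl2, a transcription factor of dividing cells, stood at 30.4 and 28.5 TPM in BaP, at 20.0 and 23.5 for MAR1HI, and at 3.44 and 5.18 for MAR1INT. For Cd24a they were Sdsl (0.158), Pus7 (0.175) and Sorbs3 (0.183), all under 7 TPM, and for Pirb they were Mmd (0.171), Dlgap4 (0.173) and Pitpnm1 (0.174). Within the set, Pilra and Cd33 were the closest pair (0.340), both at low levels, while Clec12a and Lilrb4a were the farthest apart (2.40). The RMS values describe 6 libraries and were given no test.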

How the data were processed

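RNA was measured in 6 libraries. Per the labels, TRIzol LS was used for the RNA and the library kit was SureSelectXT RNA direct. Per the submitters' processing notes, Trimmomatic, HISAT2, StringTie and mm10 were used. Versions, options, strand use and the annotation were not given in the sources used here. Per the file headers, each deposited table gives TPM, FPKM and coverage (a signal: reads over each base, averaged over the gene). The authors' TPM summed to 1000000 in each library. Depth was known only as aligned bases, so no counting intervals were given. Gene IDs were joined to symbols with RefSeq GRCm38.p6 (24462 of 24532 matched).

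Genes that reached a TPM of 1 in 2 or more libraries were tested in limma 3.58.1 (R 4.3.3) on log2(TPM + 1) (1 term per group, eBayes with a trend, 3 residual degrees of freedom, two-sided, Benjamini-Hochberg). The scale understates changes of low genes. The fit was run on simulated data, with large changes placed only in genes that were not low. That run does not speak for low genes or small changes. The members, lists and rules were chosen with earlier results of these data known. All 9 genes are named, with the 4 genes of each list with the smallest F test p, near copies and direct activating partners, and 3 genes of like profile for 4 members. The step contrast, the summed Lilrb4a and Lilr4b, the 1.5-fold comparison of BaP libraries and the shared 50-base stretches (GENCODE M21 transcripts) were chosen after the data were seen. No protein sequences were used. A result for 1 list gene is not reported here. The alternatives were other filters, a pseudocount of 0.1, FPKM, 2 other scalings, eBayes without a trend, only the 2 groups compared, a replicate block and leaving out each library.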

Additional observations from a re-analysis of the deposited data

How the results depend on the processing

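Of 423 comparisons of a contrast of one of the 9 genes with its value under an alternative, 369 kept direction and side of the threshold, 26 lost a call, 17 gained one and 11 changed direction. Part of this sameness was set by design. The summed Lilrb4a and Lilr4b run left the values of the other genes unchanged. Several alternatives, such as other filters, cannot change the size of a difference, and a contrast that was not called cannot lose a call. The changes from BaP to MAR1INT of Lilrb4a, Clec12a and Cd24a stayed called in each alternative run. With no filter on low values, the counts called higher in MAR1HI against BaP, MAR1INT against MAR1HI and MAR1INT against BaP were 0, 0 and 1 (1, 2 and 2 as reported), the count lower in MAR1INT against MAR1HI was 0 (2 as reported), and the F test called 1 (5 as reported). Lower counts in MAR1INT against MAR1HI were 1 under quantile normalization, under median-of-ratios scaling and with only the 2 groups compared. With only the 2 groups, 2 genes were lower in MAR1HI against BaP (0 as reported). Without a trend, 1 was higher in MAR1INT against MAR1HI. Leaving out 1 library gave 0 to 1 higher and 0 to 2 lower in MAR1HI against BaP, 1 to 2 higher and 0 to 3 lower in MAR1INT against MAR1HI, 1 to 2 higher and 2 to 5 lower in MAR1INT against BaP, and 3 to 6 in the F test. The lone library of a group is then assumed to vary like the others. Without either MAR1INT library the adjusted p of Lilrb4a in MAR1HI against BaP fell sharply at an unchanged 1.81. With only these 2 groups in the fit it fell as well (1.4e-10, and 0.00151 as reported). Calls gained in those runs are therefore not read as an effect of the library or group left out. Direction changed in contrasts that were not called: in MAR1INT against MAR1HI for Pilra (0.463), Siglece (0.594) and Cd33 (0.695) after quantile normalization and for Cd33 (0.048) with median-of-ratios scaling. In MAR1HI against BaP it changed for Pirb without BaP replicate 1 (-0.092, and up to 0.771 with another library left out) and for Cd300lf without BaP replicate 2 (1.113, and down to -1.537). There Cd300a gave -0.157 with FPKM, -0.231 with quantile normalization, -0.234 with median-of-ratios scaling, -0.007 without BaP replicate 2 and -0.12 without MAR1HI replicate 2. The cause was not tested. From BaP to MAR1INT, no filter on low values left 2 risen effectors of inhibition (5 as reported), 2 risen and 1 fallen genes in the list of other receptors (5 and 3), and 3 fallen lectin-type receptors (12). Without a trend 3 effectors rose.

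The median of all genes was 0.24, -0.36 and -0.16 in the 3 contrasts in TPM, 0.03, -0.32 and -0.34 in FPKM, 0.02, 0.11 and 0.11 under quantile normalization, and -0.04, -0.11 and -0.17 under median-of-ratios scaling. Replicate numbers recur across groups in the labels, which do not say whether same-numbered libraries belong together. Their deviations correlated at 0.15 (BaP with MAR1HI), -0.09 (BaP with MAR1INT) and -0.06 (MAR1HI with MAR1INT) across genes. With 2 libraries a group these values cannot exclude a pairing. With the replicate block the counts were 1 and 0, 2 and 2, and 2 and 4 (higher and lower in the 3 contrasts) and 6 in the F test, with Cd300lf called lower in MAR1INT against BaP (-2.03, adjusted p = 0.0244). With 2 libraries a group, standard errors of the log2 changes ran from 0.17 for Lilrb4a to 0.79 for Cd300lf.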
